A study of Sus scrofa with 8 samples.

Results

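The receptors of the epidermal growth factor (EGF) family and their ligands were followed through 8 messenger RNA libraries from Guizhou minipigs aged 8 months. The members were 10 genes, the receptors EGFR, ERBB2 and ERBB3 and the ligands EGF, TGFA, AREG, EREG, HBEGF, BTC and NRG1, found by matching each symbol to a single pig Ensembl gene among the 31907 genes counted. A neobladder is a urinary reservoir, here one made from ileum, and the series title describes replacing its mucosa with autologous peritoneum. There were 4 groups of 2 libraries: mucosa of the neobladder from the experimental group (MN-Exp, here experimental neobladder), mucosa of the neobladder from the control group (MN-Ctrl, control neobladder), normal peritoneum (NP) and mucosa of the normal bladder (MNB, native bladder). The term both bladder groups stands below for experimental neobladder and native bladder and makes no claim of identity. All groups share strain and age, and the labels give no treatment, time after surgery or lining for the control reservoir. They do not say whether the 2 libraries of a group came from separate animals, so every p-value measures only the spread between these libraries, which may be technical.

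Receptors of this family are membrane tyrosine kinases that pair when a ligand binds and pass the signal to the RAS and MAP kinase cascade and to PI3 kinase. The roles given here are known mainly from human and mouse. EGFR binds EGF, TGFA and AREG, while HBEGF, EREG and BTC bind both EGFR and ERBB4. ERBB2 has no known ligand of its own and serves as a partner, and ERBB3, which has little kinase activity, binds neuregulins such as NRG1. The ligands are made as membrane precursors and are cut free by metalloproteases, chiefly ADAM10 and ADAM17. In gut crypts and in bladder epithelium this signal is known for driving growth and regrowth after damage.

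In the Sscrofa11.1 assembly, per RefSeq, EGFR spans chr9:139302410-139474632, ERBB2 chr12:22591621-22621384 and ERBB3 chr5:21474218-21495040. The ligand genes EREG (chr8:70351316-70372530), AREG (chr8:70417935-70428106) and BTC (chr8:70645721-70697538), lie with the further ligand EPGN within 430.7 kb of each other. EGF lies apart on the same chromosome (chr8:112235607-112330062). TGFA is at chr3:71948232-72054257, HBEGF at chr2:142102455-142115192 and NRG1 at chr15:52625550-53688003.

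Library totals ran from 7.94 to 11.88 M counts. Levels are given as CPM, counts scaled to library size, after trimmed mean of M-values (TMM) scaling, which allows for differences in library composition. The TMM factors were 0.839 and 0.449 in control neobladder libraries 1 and 2 and 1.09 to 1.24 elsewhere, and control library 2 stood apart with 6.34% of its counts in 42 ribosomal protein genes, against 1.66 to 2.93% in the other 7 libraries. The summed level of 10 urothelial markers was 4640 and 8835 CPM in experimental neobladder, 80.7 and 182 CPM in control neobladder, 556 and 1003 CPM in peritoneum (chiefly UPK1B and KRT7) and 10166 and 9174 CPM in native bladder. That of 10 intestinal markers was 46456 and 164054 CPM in control neobladder and 29.6 to 48.2 CPM in the other 6 libraries, with CDX2 at 0 counts in experimental neobladder and native bladder. The 4 mesothelial markers in the files summed to 4.49 and 5.10 CPM in experimental neobladder, 0.109 and 0.187 CPM in control neobladder, 34.4 and 32.6 CPM in peritoneum and 10.3 and 4.93 CPM in native bladder. WT1 stood at 27.7 and 25.3 CPM in peritoneum and at or under 0.187 CPM elsewhere, HAS1 was higher in both bladder groups than in peritoneum, and CALB2 was at 0 counts in all 8 libraries. Fibroblast markers summed to 42702 and 57282 CPM in peritoneum and 856 to 10365 CPM elsewhere, and endothelial markers to 1957 and 1468 CPM in peritoneum and 101 to 443 CPM elsewhere. Smooth muscle markers summed to 4637 and 5352 CPM in experimental neobladder, 855 and 853 CPM in control neobladder, 1354 and 1247 CPM in peritoneum and 3996 and 4276 CPM in native bladder. Macrophage markers summed to 2390 and 5279 CPM in control neobladder and 768 to 1128 CPM elsewhere, T cell markers to 271 and 454 CPM in control neobladder and 27.0 to 173 CPM elsewhere, and nerve and glia markers to 70.7 and 66.4 CPM in peritoneum and 2.62 to 22.6 CPM elsewhere. A gene is called where edgeR's quasi-likelihood test over all 16549 genes tested gave a Benjamini-Hochberg adjusted p under 0.05, and SE stands for the standard error of a log2 fold change.

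**Figure D1:**
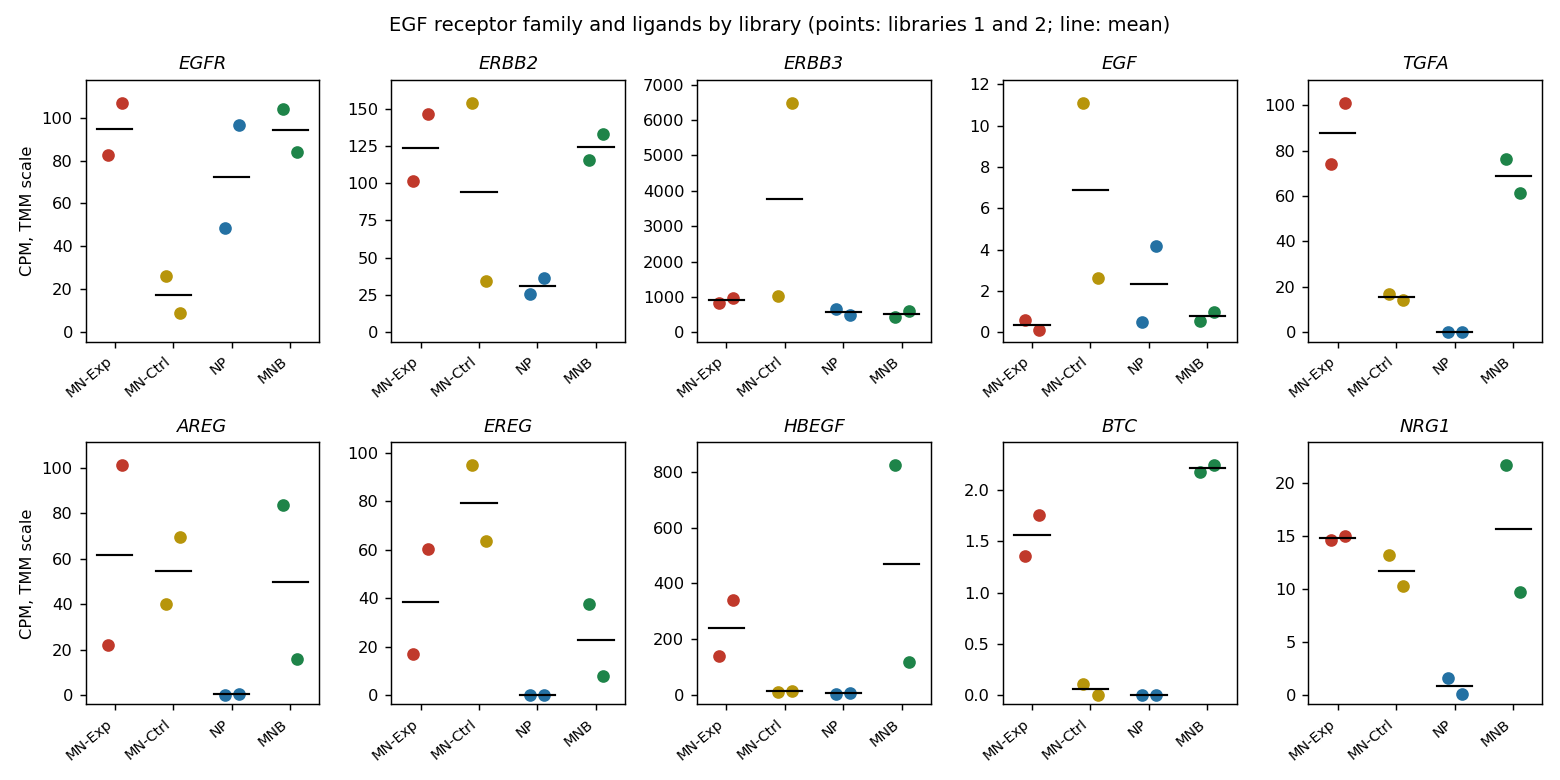
Level of each member (CPM on the TMM scale, vertical axis, linear and scaled to each gene) in the 2 libraries of experimental neobladder (MN-Exp), control neobladder (MN-Ctrl), peritoneum (NP) and native bladder (MNB). Points are libraries 1 and 2 and lines are means. EGFR, TGFA, HBEGF and BTC are low in control neobladder, and the ligands TGFA, AREG, EREG, HBEGF, BTC and NRG1 are near 0 in peritoneum relative to both bladder groups.

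EGFR, the receptor for most of these ligands, was lowest in control neobladder. It stood at 82.6 and 107 CPM in experimental neobladder, 26.2 and 8.99 CPM in control neobladder, 48.6 and 96.3 CPM in peritoneum and 104 and 84.1 CPM in native bladder. The control libraries lay below all 6 others, which overlapped each other. EGFR rose in experimental over control neobladder with a log2 fold change of 2.41 (SE 0.54, adjusted p = 0.0107). In control neobladder it fell by 2.40 on the log2 scale against native bladder (SE 0.54, adjusted p = 0.0109) and by 2.03 against peritoneum (SE 0.53, adjusted p = 0.0123). Fewer cells of a type and less RNA per cell cannot be told apart in such tissue libraries. Control library 2 had the fewest EGFR counts, 48 against 241 in control library 1. Without control library 1 the log2 fold changes were 3.42, -3.40 and -3.01 in the same order. They were 1.86, -1.84 and -1.44 without control library 2. The call against control neobladder was lost without experimental library 2 (adjusted p = 0.0648), that against native bladder without native bladder library 1 (adjusted p = 0.0590), and that against peritoneum without peritoneum library 2 (log2 fold change -1.37, adjusted p = 0.125).

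ERBB2, the shared partner receptor, was lower in peritoneum than in both bladder groups. It stood at 101 and 146 CPM in experimental neobladder, 154 and 34.5 CPM in control neobladder, 25.9 and 36.2 CPM in peritoneum and 116 and 133 CPM in native bladder. Experimental neobladder was higher than peritoneum (log2 fold change 1.99, SE 0.60, adjusted p = 0.0351), and peritoneum was lower than native bladder (95% interval of the log2 fold change -3.33 to -0.67, adjusted p = 0.0384). Those calls held in 7 of 14 alternative settings each and were lost on library totals alone (adjusted p = 0.127 and adjusted p = 0.121). They were also lost without either library of experimental neobladder, of peritoneum or of native bladder, with adjusted p from 0.0504 to 0.188. The control libraries differed 4.47-fold from each other, with library 1 the highest of all 8 and library 2 inside the range of peritoneum on the TMM scale. Without that scaling ERBB2 in control library 1 (129 CPM) lay below experimental library 2 and both native bladder libraries, and control library 2 (15.5 CPM) below peritoneum. Without control library 1, experimental neobladder exceeded control neobladder in ERBB2 by a log2 fold change of 1.87 (adjusted p = 0.00125), and without control library 2 the value was -0.31 (adjusted p = 0.541). ERBB2 in control neobladder minus peritoneum gave 1.61 (adjusted p = 0.0507) and was called by DESeq2 (adjusted p = 0.0133), with its size factors (adjusted p = 0.0399), with no low-count filter (adjusted p = 0.00206) and without control library 2 (log2 fold change 2.33, adjusted p = 7.75e-05).

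The balance of the receptors within a library does not depend on the scaling between libraries. The ratio of EGFR to ERBB2 counts was 0.814 and 0.732 in experimental neobladder, 0.170 and 0.261 in control neobladder, 1.88 and 2.66 in peritoneum and 0.899 and 0.634 in native bladder. Peritoneum thus had the highest ratios and control neobladder the lowest, with experimental neobladder inside the range of native bladder. Gene length enters each ratio equally in every library, so it compares libraries and not the genes themselves.

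Over all 8 libraries the row annotated ERBB3 followed ribosomal protein genes, which the other receptors did not. It stood at 843 and 964 CPM in experimental neobladder, 1027 and 6487 CPM in control neobladder, 671 and 480 CPM in peritoneum and 447 and 597 CPM in native bladder. Per 1000 CPM of the 42 ribosomal protein genes it held 38.1 and 41.6 CPM in experimental neobladder, 49.5 and 45.9 CPM in control neobladder, 28.3 and 26.1 CPM in peritoneum and 31.3 and 32.5 CPM in native bladder. Control library 2, with 6.31 times the ERBB3 level of control library 1, thus fell beside it on this measure. The groups still did not overlap on it, with control neobladder highest and peritoneum lowest. The 3 genes most like the row over the 8 libraries, by Pearson correlation of log2 CPM among 9864 genes, were the ribosomal protein genes RPS23 (r = 0.997) and RPS25 (r = 0.994) and the gamma-secretase subunit PSENEN (r = 0.996). Over 41 ribosomal protein genes the median r with the row was 0.963, or 0.701 over the 7 libraries without control library 2, against -0.441 with ERBB2 and -0.844 with EGFR over all 8. RefSeq places PA2G4, a growth-regulating nucleolar protein, 956 bases from the end of ERBB3, and no row analysed here carries its symbol. Whether reads of another transcript entered the row was not tested.

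**Figure D2:**
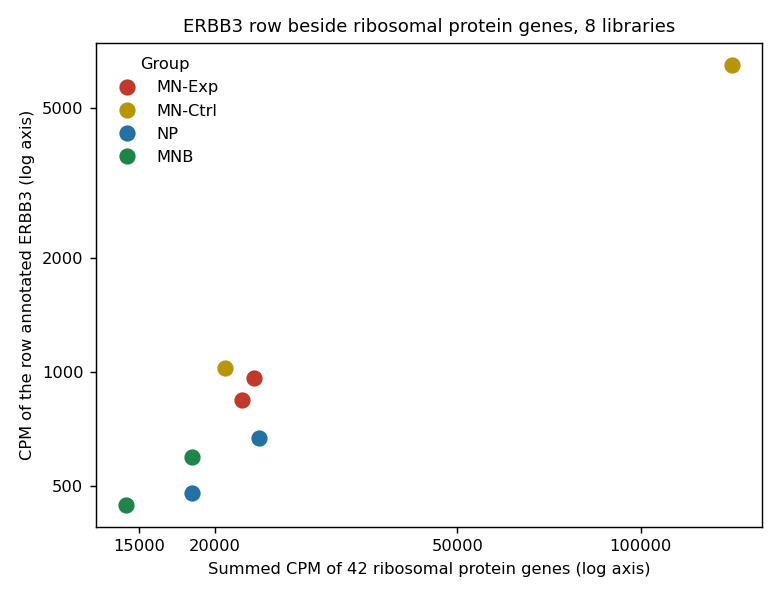
Level of the row annotated ERBB3 (CPM, vertical log axis) against the summed CPM of 42 ribosomal protein genes (horizontal log axis) in the 8 libraries, coloured by group. The library at the upper right is control neobladder library 2, at 6487 CPM for ERBB3, and the other 7 lie between 447 and 1027 CPM.

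By the test, the ERBB3 row was higher in control neobladder than in native bladder (log2 fold change 2.85, SE 0.78, adjusted p = 0.0260) and peritoneum (log2 fold change 2.71, SE 0.77, adjusted p = 0.0178). Without control library 2 these log2 fold changes were 0.98 (adjusted p = 0.0322) and 0.86 (adjusted p = 0.0333), and without control library 1 both were above 3 on the log2 scale (adjusted p = 2.21e-06 and adjusted p = 1.42e-06). Neither ERBB3 call held on library totals alone (adjusted p = 0.0653 and adjusted p = 0.0697) or with only the 2 groups compared in the test (adjusted p = 0.115 and adjusted p = 0.0827). The call against native bladder was lost without native bladder library 1 or 2 (adjusted p = 0.195 and adjusted p = 0.124), and that against peritoneum without peritoneum library 1 or 2 (adjusted p = 0.0756 and adjusted p = 0.106). Experimental against control neobladder gave a log2 fold change of -2.06 (SE 0.75, adjusted p = 0.0774), which was -2.82 without control library 1 (adjusted p = 1.49e-05) and -0.18 without control library 2 (adjusted p = 0.733). DESeq2 called it (log2 fold change -2.20, adjusted p = 0.00430), as did edgeR with no low-count filter (adjusted p = 0.00184), and on library totals alone the value was -0.90 (adjusted p = 0.252). Given the likeness to ribosomal protein genes, these ERBB3 values are uncertain as values of the receptor.

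Among the ligands, TGFA, which binds EGFR and is made by many epithelia, had the smallest SE in each of the 6 comparisons. It stood at 74.3 and 101 CPM in experimental neobladder, 16.9 and 14.4 CPM in control neobladder, 0.306 and 0.0891 CPM in peritoneum and 76.3 and 61.3 CPM in native bladder. Peritoneum, with 3 and 1 counts, lay below control neobladder, which lay below both bladder groups. Experimental neobladder and native bladder overlapped in TGFA. TGFA rose in experimental over control neobladder (log2 fold change 2.48, SE 0.40, adjusted p = 0.00176) and over peritoneum (log2 fold change 8.75, SE 0.59, adjusted p = 3.15e-05). In control neobladder it was lower than in native bladder (log2 fold change -2.13, SE 0.39, adjusted p = 0.00382) and higher than in peritoneum (log2 fold change 6.27, SE 0.57, adjusted p = 3.87e-05). Peritoneum was lower than native bladder (log2 fold change -8.40, SE 0.58, adjusted p = 3.88e-05). All 5 of these calls held in each of the 14 alternative settings. The folds against peritoneum rest on 4 counts there and moved to 9.79, 7.29 and -9.43 without peritoneum library 1. Without peritoneum library 2 they were 8.14, 5.69 and -7.81.

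HBEGF, a heparin-binding ligand released early in wounded epithelium, was high in both bladder groups. It stood at 140 and 342 CPM in experimental neobladder, 12.4 and 13.7 CPM in control neobladder, 5.50 and 7.57 CPM in peritoneum and 823 and 119 CPM in native bladder. Experimental neobladder and native bladder overlapped, and both lay above the other 2 groups. HBEGF rose in experimental over control neobladder (log2 fold change 4.21, SE 0.84, adjusted p = 0.00599) and over peritoneum (log2 fold change 5.20, SE 0.88, adjusted p = 0.00212). Control neobladder was lower than native bladder (log2 fold change -5.17, SE 0.88, adjusted p = 0.00255), and so was peritoneum (log2 fold change -6.17, SE 0.92, adjusted p = 0.00121). Control neobladder and peritoneum gave a log2 fold change of 0.99 (SE 0.77, adjusted p = 0.318). Without control library 1 or 2 the experimental to control call was lost (adjusted p = 0.124 and adjusted p = 0.164), and so was that of control against native bladder (adjusted p = 0.0847 and adjusted p = 0.122). Without native bladder library 1 the log2 fold changes against native bladder were -3.21 for control neobladder and -4.21 for peritoneum, and without library 2 they were -5.99 and -6.99. Without experimental library 2 the rises were 3.45 over control neobladder and 4.45 over peritoneum.

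BTC, betacellulin, was measured by few counts. Experimental neobladder had 16 and 19 counts (1.36 and 1.76 CPM), control neobladder 1 and 0 counts, peritoneum 0 counts in both libraries, and native bladder 27 and 30 counts (2.18 and 2.24 CPM). Both bladder groups lay above control neobladder and peritoneum, with native bladder above experimental neobladder. BTC was 22.5-fold higher in experimental than in control neobladder (35 counts against 1, 95% interval 3.78 to 914, counting error only), and the test gave adjusted p = 0.0409. That call was lost in 8 of 14 settings, with adjusted p up to 0.196, among them every removal of an experimental, control or native bladder library. Control neobladder was lower than native bladder in BTC (adjusted p = 0.0258), at 1 count against 57, a 32.1-fold difference (95% interval 5.54 to 1291). That call was lost in 5 settings, each without a library: either experimental or native bladder library, or control library 2 (adjusted p from 0.0597 to 0.135). Against 3 counts over both peritoneum libraries, BTC was at least 10.9-fold higher in experimental neobladder (adjusted p = 0.0115) and at least 15.5-fold lower in peritoneum than in native bladder (adjusted p = 0.00904). Without experimental library 2 or peritoneum library 2 the first gave adjusted p = 0.0665 and adjusted p = 0.0506, and without native bladder library 1 or 2 the second gave adjusted p = 0.0564 and adjusted p = 0.0518.

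AREG and EREG, neighbouring genes for amphiregulin and epiregulin, were present in both kinds of reservoir and in native bladder. AREG stood at 22.1 and 101 CPM in experimental neobladder, 39.9 and 69.3 CPM in control neobladder, 0.102 and 0.446 CPM in peritoneum and 83.8 and 15.8 CPM in native bladder. EREG stood at 16.8 and 60.4 CPM in experimental neobladder, 94.8 and 63.7 CPM in control neobladder, 0 and 0.0891 CPM in peritoneum and 37.6 and 7.77 CPM in native bladder. Apart from peritoneum, where AREG had 6 counts in all and EREG 1, the AREG levels of the groups overlapped. On the TMM scale both control libraries had higher EREG levels than the others, narrowly above experimental library 2. Without that scaling EREG in control library 2 stood at 28.6 CPM, below the 65.6 CPM of experimental library 2 and the 43.5 CPM of native bladder library 1. Experimental against control neobladder gave log2 fold changes of 0.18 for AREG (SE 0.80, adjusted p = 0.901) and -1.04 for EREG (SE 0.72, adjusted p = 0.326). EREG in control neobladder minus native bladder gave 1.81 (adjusted p = 0.103) and was called by DESeq2 (adjusted p = 0.0362), with no low-count filter (adjusted p = 0.00148) and without native bladder library 1 (log2 fold change 3.34, adjusted p = 0.0360).

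Against peritoneum, AREG was higher in experimental neobladder (log2 fold change 7.71, SE 1.19, adjusted p = 0.00125) and in control neobladder (log2 fold change 7.53, SE 1.18, adjusted p = 0.000806). Peritoneum was lower than native bladder in AREG (log2 fold change -7.40, SE 1.18, adjusted p = 0.00180). For EREG, measured against the single count of peritoneum, the ratio was 791 in experimental neobladder (95% interval 142 to 31278), 1755 in control neobladder (314 to 69359) and 465 in native bladder (83.1 to 18384). The tests gave adjusted p = 0.000664 and adjusted p = 0.000200 for the neobladders over peritoneum and adjusted p = 0.00128 for peritoneum as lower than native bladder. These 6 calls held in each of the 14 settings. The AREG log2 fold changes ran from 6.26 (without experimental library 2) to 9.11 (without peritoneum library 2) for experimental neobladder. They ran from 6.91 to 8.94 for control neobladder, without peritoneum library 1 and 2 in turn, and for peritoneum against native bladder from -8.83 (without peritoneum library 2) to -5.77 (without native bladder library 1). No such range is given for EREG, since its only count in peritoneum was in library 2.

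The balance of HBEGF to AREG differed between control neobladder and both bladder groups in a way free of the scaling. The ratio of HBEGF to AREG counts, chosen after the values were seen, was 6.34 and 3.38 in experimental neobladder, 0.311 and 0.197 in control neobladder and 9.82 and 7.57 in native bladder. The ratio of EREG to AREG counts was 0.759 and 0.598 in experimental neobladder, 2.38 and 0.919 in control neobladder and 0.448 and 0.493 in native bladder. The HBEGF to AREG ratio set the control libraries apart from the 4 libraries of both bladder groups. For EREG to AREG, control library 2 (340 and 370 counts) lay only narrowly above experimental library 1 (198 and 261 counts). In peritoneum 54 and 85 HBEGF counts stood beside 1 and 5 AREG counts.

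AREG, EREG and HBEGF moved together between the 2 libraries of the same tissue. In experimental neobladder, library 2 exceeded library 1 by 4.56-fold for AREG, 3.60-fold for EREG and 2.43-fold for HBEGF. In native bladder, library 1 exceeded library 2 by 5.31-fold, 4.83-fold and 6.90-fold for the same genes. EGFR, ERBB2, TGFA and BTC differed by at most 1.44-fold within experimental neobladder and within native bladder. A difference of over 2-fold in these directions in both groups was seen in 1.24% of the 16549 genes tested (206 genes). It was seen in 7 of 21 tested genes of a list of transcripts known to follow MAP kinase signalling. The following were picked once their values were known. The AP-1 factor FOSL1 stood at 22.2 and 76.0 CPM in experimental neobladder and 262 and 30.3 CPM in native bladder. The urokinase receptor PLAUR stood at 124 and 310 CPM in experimental neobladder and 881 and 161 CPM in native bladder. ERRFI1, which binds and restrains EGFR, stood at 14.9 and 57.0 CPM in experimental neobladder and 72.9 and 19.1 CPM in native bladder. Among 20 tested genes that restrain the receptors or feed back on the cascade, only DUSP5 also passed 2-fold in both groups in these directions. LRIG3 went the other way, with log2 ratios of -1.72 in experimental neobladder and -2.06 in native bladder. The pattern, too, was picked with the values known, and what set these libraries apart was not tested.

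**Figure D3:**
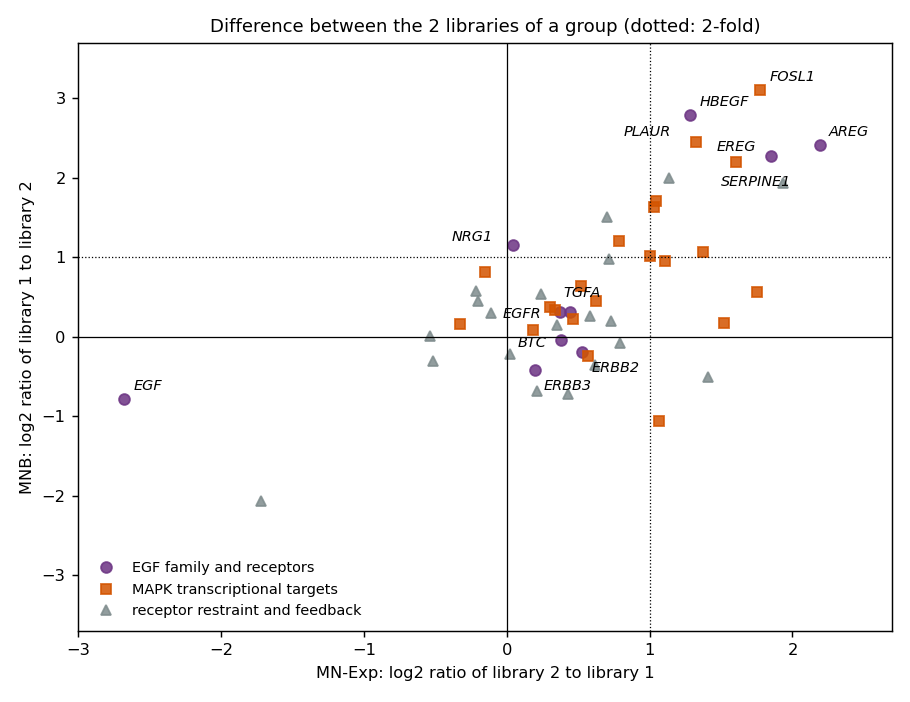
Difference between the 2 libraries of a group, as the log2 ratio of library 2 to library 1 in experimental neobladder (MN-Exp, horizontal axis) and of library 1 to library 2 in native bladder (MNB, vertical axis). Points are the members, tested MAP kinase target transcripts and tested receptor restraint and feedback genes with counts in all 4 libraries. AREG, EREG, HBEGF and FOSL1 lie past the dotted 2-fold lines on both axes, and EGFR, ERBB2, TGFA and BTC lie within them.

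NRG1, the neuregulin that binds ERBB3 and ERBB4, was lowest in peritoneum. It stood at 14.6 and 15.0 CPM in experimental neobladder, 13.2 and 10.3 CPM in control neobladder, 1.63 and 0.0891 CPM in peritoneum and 21.6 and 9.71 CPM in native bladder. The experimental and control libraries did not overlap but were close, with a log2 fold change of 0.33 (SE 0.69, adjusted p = 0.766). Against peritoneum NRG1 was higher in experimental neobladder (log2 fold change 4.13, SE 0.83, adjusted p = 0.00549) and control neobladder (log2 fold change 3.80, SE 0.83, adjusted p = 0.00501). Peritoneum was lower than native bladder (log2 fold change -4.21, SE 0.83, adjusted p = 0.00590). These 3 calls held in each of the 14 settings, although peritoneum library 1 supplied 16 of the group's 17 counts. Without that library the log2 fold changes were 7.22, 6.88 and -7.30, and without peritoneum library 2 they were 3.21, 2.91 and -3.32. Without native bladder library 1 the last was -3.54.

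EGF itself was sparse everywhere. It had 7 and 1 counts (0.593 and 0.0927 CPM) in experimental neobladder, 102 and 14 counts (11.1 and 2.62 CPM) in control neobladder, 5 and 47 counts (0.509 and 4.19 CPM) in peritoneum and 7 and 13 counts (0.565 and 0.971 CPM) in native bladder. Control library 2 lay inside the range of peritoneum, and experimental neobladder and native bladder lay below both control libraries. Without TMM scaling, control library 2 and native bladder library 2 both stood at 1.18 EGF CPM. EGF was lower in experimental than in control neobladder (log2 fold change -4.27, SE 1.22, adjusted p = 0.0320). The call was lost on library totals alone (adjusted p = 0.0735), without control library 1 (log2 fold change -2.85, adjusted p = 0.134) and without experimental library 1 (log2 fold change -6.04, adjusted p = 0.0724) or 2 (log2 fold change -3.51, adjusted p = 0.204). Without control library 2 it was -4.94 (adjusted p = 0.0120). Control against native bladder gave a log2 fold change of 3.15 (SE 1.12, adjusted p = 0.0676). It was called by DESeq2 (adjusted p = 0.0194), with no low-count filter (adjusted p = 0.00206), with only the 2 groups compared (adjusted p = 0.0469), without control library 2 (adjusted p = 0.0310) and without peritoneum library 1 or 2 (adjusted p = 0.0352 and adjusted p = 0.0393). Without control library 1 it was 1.73 (adjusted p = 0.337).

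Counted over the family, 4 of the 10 members rose in experimental over control neobladder (EGFR, TGFA, HBEGF and BTC), where 10.4% of all genes tested rose. A single member, EGF, fell, where 11.3% of all genes fell, and 21.7% were called in either direction. Over peritoneum 7 members rose in experimental neobladder and none fell (12.4 and 11.8% of all genes, 24.2% in either direction). In control neobladder 5 members were higher than in peritoneum and 1, EGFR, was lower (21.6 and 20.6%, 42.3% in either direction). Against native bladder 1 member, the ERBB3 row, was higher and 4 were lower in control neobladder (11.2 and 11.1%, 22.3% in either direction). In peritoneum 7 were lower than in native bladder and none was higher (11.1 and 9.93%, 21.1% in either direction). These comparisons share libraries. The median log2 fold change of the members was 0.36 for experimental minus control neobladder, 4.66 for experimental neobladder minus peritoneum and -5.19 for peritoneum minus native bladder, beside 0.11, -0.01 and 0.01 for all genes tested. All 9 of the marker sums given above differ without overlap between the libraries of experimental and control neobladder. The same holds for control neobladder and peritoneum. Between peritoneum and each of experimental neobladder and native bladder, all but the macrophage and intestinal sums do so. The intestinal sum does so for peritoneum and native bladder. Between experimental neobladder and native bladder, all but the mesothelial, endothelial and macrophage sums do so. There the urothelial, fibroblast and nerve and glia sums are lower in experimental neobladder, and the smooth muscle, T cell and intestinal sums are higher. Fibroblast markers summed to 2795 and 2811 CPM in experimental neobladder and 10365 and 9796 CPM in native bladder. The part of these sums in the members' values was not tested.

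Between experimental neobladder and native bladder edgeR called 0 of the 10 members, and 0 had an unadjusted p under 0.05, the smallest being 0.217 for HBEGF. DESeq2 also called 0. Of all genes, 0.0967% were called (0.0423% higher and 0.0544% lower), so a count of 0 is near the background. The log2 fold change and its 95% interval were 0.01 (-1.11 to 1.13) for EGFR, -0.01 (-1.28 to 1.27) for ERBB2, 0.35 (-0.47 to 1.17) for TGFA and -0.08 (-1.58 to 1.42) for NRG1. They were 0.31 (-1.45 to 2.06) for AREG, 0.77 (-0.84 to 2.37) for EREG, -0.97 (-2.60 to 0.66) for HBEGF, -0.50 (-2.49 to 1.48) for BTC and -1.12 (-3.83 to 1.60) for EGF. The ERBB3 row gave 0.79 (-0.83 to 2.41). Each of the 10 intervals reached past a 2-fold difference in at least 1 direction, so such a difference was not excluded for any member. The smallest log2 fold change called among all genes in this comparison was 2.57 in size. Without native bladder library 1 the HBEGF value was 1.02.

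**Figure D4:**
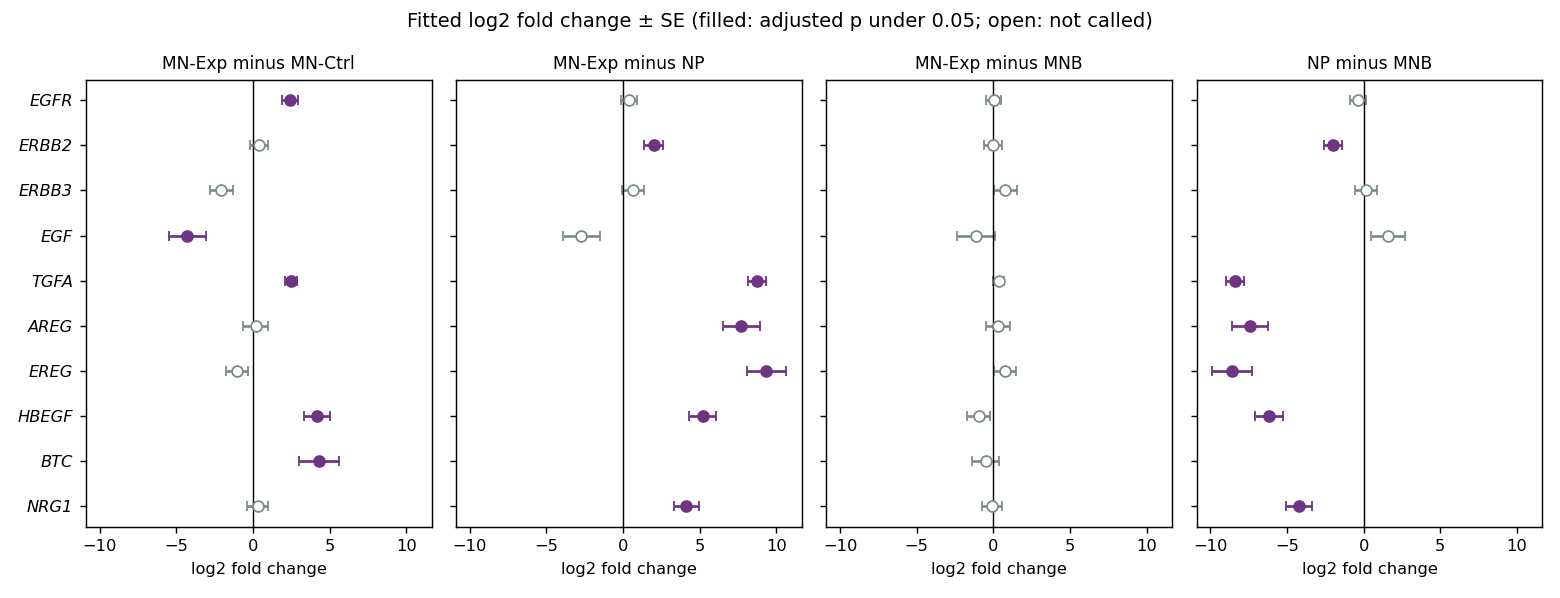
Fitted log2 fold change (horizontal axis) of each member with its SE (bars) in 4 comparisons, each as the first-named group minus the second. Filled points have an adjusted p under 0.05. BTC is left out of both comparisons with peritoneum (NP), where it had 0 counts. No point is filled for experimental neobladder (MN-Exp) minus native bladder (MNB), while TGFA, AREG, EREG, HBEGF and NRG1 are filled in both comparisons with peritoneum.

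ERBB4, the remaining receptor, shared the direction of EGFR. It stood at 4.49 and 3.62 CPM in experimental neobladder, 0.218 and 0 CPM in control neobladder, 3.77 and 1.87 CPM in peritoneum and 7.92 and 5.30 CPM in native bladder. The control libraries, with 2 counts in all, lay below the 6 others. The level in experimental neobladder was 29.6 times that of control neobladder (95% interval 7.96 to 248, counting error only; adjusted p = 0.00592). Whether this ERBB4 call holds in the alternative settings was not tested. Of the other ligands, NRG2 and NRG3 were too sparse for the test. NRG2 was at 0 counts in control neobladder and native bladder and at most 1.51 CPM elsewhere, and NRG3 had 1 count in the 8 libraries.

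Genes with the pattern most like EGFR over the 8 libraries were the RAP1 activator RAPGEF2 (r = 0.990), the adaptor SH3BP2 (r = 0.989) and the polarity scaffold DLG5 (r = 0.988). Those most like ERBB2 were the glycogen phosphorylase PYGB (r = 0.988), the proton pump subunit ATP6V1H (r = 0.987) and the phosphatase scaffold PPP2R1B (r = 0.986). Each r is over 8 libraries in 4 groups and describes these libraries only.

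Among 11 genes of ligand shedding, 2 rose in experimental over control neobladder and none fell (median log2 fold change 0.9995), where 10.4% of all genes rose and 11.3% fell. CD9, a tetraspanin that associates with the HBEGF precursor, averaged 1872 ± 193 CPM in experimental and 544 ± 2.24 CPM in control neobladder (SD, n = 2 each; adjusted p = 0.0237). The metalloprotease ADAM9 averaged 84.8 ± 9.27 CPM in experimental and 35.3 ± 9.58 CPM in control neobladder (SD, n = 2 each; adjusted p = 0.0357). The main sheddase of these ligands, ADAM17, averaged 42.2 ± 4.12 CPM in experimental and 20.1 ± 10.7 CPM in control neobladder and was not called (adjusted p = 0.108). Nor was the rhomboid protease RHBDL2, at 40.4 and 30.1 CPM in experimental and 6.86 and 24.4 CPM in control neobladder (adjusted p = 0.138). This count was 0 without either experimental library, either peritoneum library or either native bladder library and with only those 2 groups in the test, 4 without control library 1, and 3 higher and 2 lower without control library 2.

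Of 20 tested genes that restrain the receptors or feed back on the cascade, 4 rose and 2 fell in experimental over control neobladder (median log2 fold change 0.48), where 10.4% of all genes rose and 11.3% fell. The receptor phosphatase PTPRJ had 80.9 and 56.4 CPM in experimental neobladder, against 24.6 and 17.8 CPM in control neobladder (adjusted p = 0.0109). The MAP kinase phosphatase DUSP4 had 43.1 and 70.2 CPM in experimental neobladder, against 16.2 and 16.3 CPM in control neobladder (adjusted p = 0.0306). The ubiquitin ligase CBLC, which marks activated EGFR for degradation, fell to 10.9 and 10.1 CPM in experimental neobladder, against 32.0 and 36.0 CPM in control neobladder (adjusted p = 0.0170). LRIG1, an EGFR antagonist of epithelial stem cells, fell to 2.46 and 2.13 CPM in experimental, against 21.7 and 4.31 CPM in control neobladder (adjusted p = 0.0227). It stood at 24.5 and 23.5 CPM in peritoneum and 5.01 and 3.66 CPM in native bladder. The LRIG1 fall leaned on control library 1, with 199 counts. On library totals control library 2, with 23 counts, lay below both experimental libraries, with 29 and 23 counts. The list's count was 10 without control library 1, 3 without experimental library 1, 1 without experimental library 2, 4 without control library 2 and 3 with only those 2 groups in the test.

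Of 27 tested adaptors and cascade kinases, 2 were higher and 1 was lower in experimental than in control neobladder (median log2 fold change 0.36), where 10.4% of all genes were higher and 11.3% lower. MAP2K1, the kinase above ERK, rose to 81.3 and 117 CPM in experimental neobladder, against 30.8 and 22.1 CPM in control neobladder (adjusted p = 0.00671). MAPK3, which encodes ERK1, fell to 1.27 and 1.95 CPM in experimental neobladder, against 9.04 and 7.68 CPM in control neobladder (adjusted p = 0.0147). PIK3R2, a regulatory subunit of PI3 kinase, averaged 19.6 ± 0.386 CPM in experimental and 7.35 ± 1.92 CPM in control neobladder (SD, n = 2 each; adjusted p = 0.0273). MAP2K2 had 27.9 and 25.4 CPM in experimental neobladder, against 38.9 and 97.1 CPM in control neobladder, and was not called (adjusted p = 0.0561). Without control library 1 the list had 10 higher and 4 lower, without control library 2 it had 1 higher and 4 lower, and without experimental library 1 or 2 it had 1 and 0 called.

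Of 21 tested transcripts known to follow MAP kinase signalling, many of which also answer to other stimuli, 13 rose in experimental neobladder and none fell against control neobladder (median log2 fold change 2.15), and 13 rose and none fell against peritoneum (median 1.94). Of all genes tested, 10.4% rose against control neobladder and 12.4% against peritoneum. Cyclin D1 (CCND1) stood at 435 and 391 CPM in experimental neobladder, 20.9 and 18.9 CPM in control neobladder, 75.5 and 57.9 CPM in peritoneum and 288 and 163 CPM in native bladder. The control libraries lay below all others, and the experimental libraries above all others. FOS stood at 1029 and 1266 CPM in experimental neobladder, 121 and 69.0 CPM in control neobladder, 12.3 and 28.7 CPM in peritoneum and 2037 and 1575 CPM in native bladder. EGR1 stood at 378 and 541 CPM in experimental neobladder, 97.8 and 84.7 CPM in control neobladder, 61.7 and 76.3 CPM in peritoneum and 1618 and 1035 CPM in native bladder. Both of these early genes were thus highest in native bladder. The ephrin receptor EPHA4 stood at 13.4 and 15.2 CPM in experimental neobladder and 2.29 and 0.937 CPM in control neobladder. Against native bladder 11 of the 21 fell and none rose in control neobladder, and 12 fell and none rose in peritoneum. Of all genes tested, 11.1% fell in each of these comparisons. Between experimental neobladder and native bladder edgeR called 0 of the 21, beside 0.0967% of all genes. The median log2 fold change of the list there was -0.41, 4 genes had an unadjusted p under 0.05, and DESeq2 called 1. The count against control neobladder was 3 without experimental library 2 and 7 without control library 2 or with those 2 groups alone in the test. The count against peritoneum was 6 without experimental library 2 or peritoneum library 2 and 8 without peritoneum library 1. Without native bladder library 1 the falls against native bladder numbered 7 in control neobladder and 6 in peritoneum, and the second count was 7 without either peritoneum library.

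**Figure D5:**
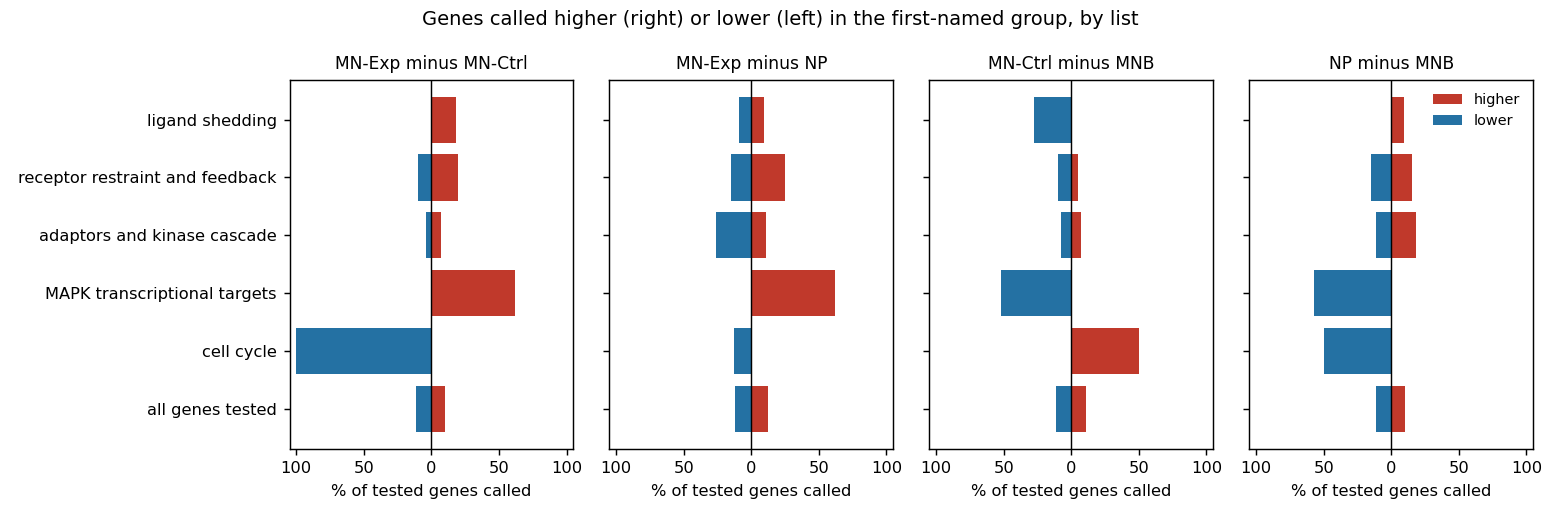
Share of the tested genes of each list (percent, horizontal axis) called higher (red, right) or lower (blue, left) in the first-named group, with the share over all 16549 genes tested in the lowest row. MAP kinase target transcripts lie to the right for experimental neobladder (MN-Exp), at 13 of 21 against control neobladder (MN-Ctrl) and against peritoneum (NP). Cell cycle genes lie to the left in experimental minus control neobladder, at 8 of 8.

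All 8 tested cell cycle genes were lower in experimental than in control neobladder (median log2 fold change -3.69), beside 11.3% of all genes. All 8 were higher in control neobladder than in peritoneum (median 3.53), beside 21.6% of all genes. In control neobladder against native bladder 6 fitted values were above 0 and 2, those of MCM2 and MCM5, were below (median 1.49). Of the 8, 4 were called higher there and none lower, beside 11.2 and 11.1% of all genes. That count was 0 on library totals alone and without either native bladder library. The cyclin-dependent kinase CDK1 stood at 3.56 and 0.556 CPM in experimental neobladder, 78.7 and 127 CPM in control neobladder, 5.20 and 4.37 CPM in peritoneum and 16.0 and 13.4 CPM in native bladder. Cyclin B1 (CCNB1) stood at 2.97 and 1.58 CPM in experimental neobladder, 83.8 and 108 CPM in control neobladder, 4.18 and 0.980 CPM in peritoneum and 14.7 and 16.0 CPM in native bladder. Thymidylate synthase (TYMS) stood at 5.42 and 6.68 CPM in experimental neobladder and 48.7 and 73.8 CPM in control neobladder. The mitotic kinase AURKB stood at 8.73 and 4.91 CPM in experimental neobladder and 43.7 and 46.1 CPM in control neobladder. On the TMM scale the control libraries were the highest for each of these 4 genes and had the lowest EGFR levels. Without experimental library 2 the test called 4 of the 8 against control neobladder, and without control library 1 it called 5 of the 8 against peritoneum. Between experimental neobladder and native bladder edgeR called 0 of the 8, beside 0.0967% of all genes. All 8 had an unadjusted p under 0.05 and a fitted value below 0 (median log2 fold change -2.65). DESeq2 called 4 lower.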

How the data were processed

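Smart-seq2 libraries were sequenced, per the labels' protocols. The authors deposited a whole-number count for each pig Ensembl gene. Their tools were Trim Galore, HISAT2 and, for counting, HTSeq 0.11.1, with the Sscrofa11.1 assembly, per the submitters' processing notes. Settings, annotation release and strand mode are not given in the sources used here, so reads of overlapping genes cannot be told apart. Symbols were found for 15029 of the 31907 genes, and positions came from RefSeq on the same assembly.

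The counts went into edgeR 4.0.16 under R 4.3.3. The filterByExpr function left 16549 genes, TMM set the scaling, and the 4 groups shared 1 robust quasi-likelihood fit with 4 residual degrees of freedom. Benjamini-Hochberg adjustment ran over all genes tested in each of 6 comparisons.

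Members and lists were chosen with earlier results of these data known. By rule, the text names all members, the other EGF family genes, the 4 genes of each list with the smallest p in experimental minus control neobladder, and the 3 genes most like each receptor (mean of 5 CPM or more). FOSL1, PLAUR, ERRFI1, DUSP5 and LRIG3 fall outside the rule and were picked on their values. EPGN, NRG4, AKT1 and 4 cell cycle genes had no symbol match and were not analysed here. A floor of 3 counts equals 0.224 to 0.562 CPM in a library, and count intervals are exact and cover counting error only. Libraries of a group differed by more than sampling noise. The 14 alternative settings were DESeq2 1.42.0, its size factors within edgeR, library totals alone, no low-count filter, only the 2 groups compared, the replicate number as a block, and each of the 8 libraries left out. Their use on list counts was decided with the data in view.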

Additional observations from a re-analysis of the deposited data

How the results depend on the processing

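With 2 libraries a group, single libraries decided many calls. Leaving out each library in turn gave 1396 to 6358 genes called in experimental minus control neobladder, 3 to 297 in experimental neobladder minus native bladder, 1442 to 6485 in control neobladder minus native bladder, 1762 to 6444 in experimental neobladder minus peritoneum, 4671 to 8279 in control neobladder minus peritoneum and 1343 to 5794 in peritoneum minus native bladder. The members called numbered, in the same order of comparisons, 2 to 5, 0, 3 to 6, 5 to 8, 4 to 7 and 5 to 7. With only the 2 groups compared, genes called were 2340, 453, 2294, 6215, 4928 and 5803 in that order. Between experimental neobladder and native bladder, where 16 were called, DESeq2 called 200, library totals alone 5 and no low-count filter 352. The cause was not tested.

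Library totals alone moved the share of higher calls in experimental minus control neobladder to 77.1%, against 48.0% with TMM, and the median of all genes to 0.89, against 0.11 on the log2 scale. In control neobladder the share was 18.7% against native bladder and 24.9% against peritoneum, beside 50.4% and 51.2% with TMM.

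The differences between libraries 1 and 2 were little alike from group to group, with r from -0.08 to 0.09. Since the groups are different tissues, this cannot settle whether same-numbered libraries came from the same animal. With the replicate block, 4 members were called in experimental minus control neobladder, BTC being lost (adjusted p = 0.0720), and the counts stayed at 0 and 5 for experimental and control neobladder against native bladder, 7 and 6 for them against peritoneum, and 7 for peritoneum minus native bladder. AREG in control neobladder minus native bladder changed sign with the replicate block (-0.072) and on library totals (-0.85). NRG1 and ERBB2 in experimental neobladder minus native bladder did so with the block (0.085 and 0.0043), ERBB2 also with DESeq2 (0.014) and its size factors (0.015). EGFR there changed sign on totals (-0.077), with no filter (-0.015) and with 2 groups (-0.0079).

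Uncalled members also changed sign without a library. In experimental minus control neobladder AREG ran from -1.28 to 0.92 and ERBB2 from -0.31 to 1.87. In experimental neobladder minus native bladder AREG ran from -1.16 to 1.97, EGFR from -0.18 to 0.20, ERBB2 from -0.29 to 0.25, EREG from -0.42 to 2.32, HBEGF from -1.76 to 1.02 and NRG1 from -0.54 to 0.61. In control neobladder minus native bladder AREG ran from -0.63 to 1.77, ERBB2 from -1.87 to 0.31 and NRG1 from -0.89 to 0.26. In peritoneum minus native bladder EGF ran from -0.63 to 2.40, EGFR from -1.01 to 0.014 and ERBB3 from -0.14 to 0.34.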
